A study of Danio rerio with 20 samples.

Results

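The 9 genes described here belong to the glucocorticoid system of the zebrafish liver: the receptors nr3c1 and nr3c2, the receptor co-chaperone gene fkbp5, the hormone-inducible genes tsc22d3, ddit4, nfkbiaa and sgk1, and the cortisol-converting enzyme genes hsd11b2 and hsd20b2. They were taken by name from a table of 32105 Ensembl genes, and each name matched exactly 1 identifier. The data are read counts from 20 liver libraries of male Danio rerio of the strain AB JxTu, 5 in each of 4 groups. The groups are fish of 3 years that swam in a swim tunnel (a tube with a water current against which they swim), unperturbed fish of 3 years, swim-tunnel fish of 1 year, and unperturbed fish of 1 year. They are called exercised and resting fish below. The labels give neither the length of the exercise, the interval to sampling nor any genetic change, and do not say whether each library is a separate fish, so the p-values reflect the spread among these libraries and part of it may be technical. All 4 groups are male, so nothing here bears on females.

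Cortisol is the main glucocorticoid of fish and is made by the interrenal cells of the head kidney, outside the liver. It enters cells and binds the glucocorticoid receptor, which leaves its chaperone complex, moves to the nucleus and changes transcription, in liver especially of genes of glucose and amino acid metabolism. Several of its target genes feed back on the hormone: some restrain the receptor, others block inflammatory or growth signalling, and oxidising enzymes inactivate cortisol itself. Many of these genes also answer to other signals, such as fasting, low oxygen, inflammation or the clock, so a level of mRNA is not a reading of hormone. Cortisol was not part of the data used here.

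Libraries held 33046127 to 49579666 counts and 20891 to 23404 detected genes. Hepatocyte markers were abundant in every library, with a summed level of 130300 to 326600 plain CPM (a library's counts set to the same sum in all) over 20 genes, led by tfa, which encodes transferrin. Transcripts of neighbouring organs were also present: the intestinal gene fabp2 was above 100 plain CPM in 7 libraries (282.5 to 3480) and at most 5.73 in the other 13. These 7 are exercised 3-year replicates 1, 2 and 5, resting 3-year replicate 3, exercised 1-year replicates 3 and 4, and resting 1-year replicate 5. The pancreatic gene prss1 ran from 1.78 to 25431 plain CPM. Macrophage and other myeloid markers had a summed level of 255.7 to 667.6 plain CPM in exercised and 113 to 481.3 in resting fish of 3 years, and of 70.9 to 228.7 in exercised and 88.1 to 419.5 in resting fish of 1 year. In bulk tissue, fewer cells of a type and less RNA per cell cannot be told apart. Markers of the interrenal gland summed to 34.9 to 154.6 plain CPM, and NR0B1 was the 1 of 12 matched genes that averaged above 1. Testis markers reached 82.5 plain CPM in exercised 1-year replicate 2 and at most 12.0 elsewhere. Skeletal muscle markers summed to 3.18 to 251 plain CPM, with the highest sum in exercised 3-year replicate 4.

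Levels are CPM scaled by TMM, and were compared between genes only after division by gene length, as RPKM computed from the counts. On that scale hsd11b2 (149.7 ± 70.1, mean and SD over 20 libraries), fkbp5 (139 ± 82.5) and tsc22d3 (139 ± 86.0) were the most abundant, and their libraries overlapped widely. sgk1 followed at 38.2 ± 33.4. ddit4 (11.4 ± 15.8), nfkbiaa (8.37 ± 6.43), nr3c1 (7.94 ± 2.05) and hsd20b2 (6.19 ± 3.75) did not differ from their neighbours beyond these SDs. nr3c2 was lowest at 1.12 ± 0.569. The members also differed in how far their libraries spread: the highest library of nr3c1 was 2.95 times the lowest, against 5.06 times for nr3c2, 8.76 for hsd11b2, 33.5 for fkbp5 and 90.5 for ddit4. The other members lay between 13.4 and 16.8. The lowest count of any member in any library was 45, so no value rests on a few reads.

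**Figure D1:**
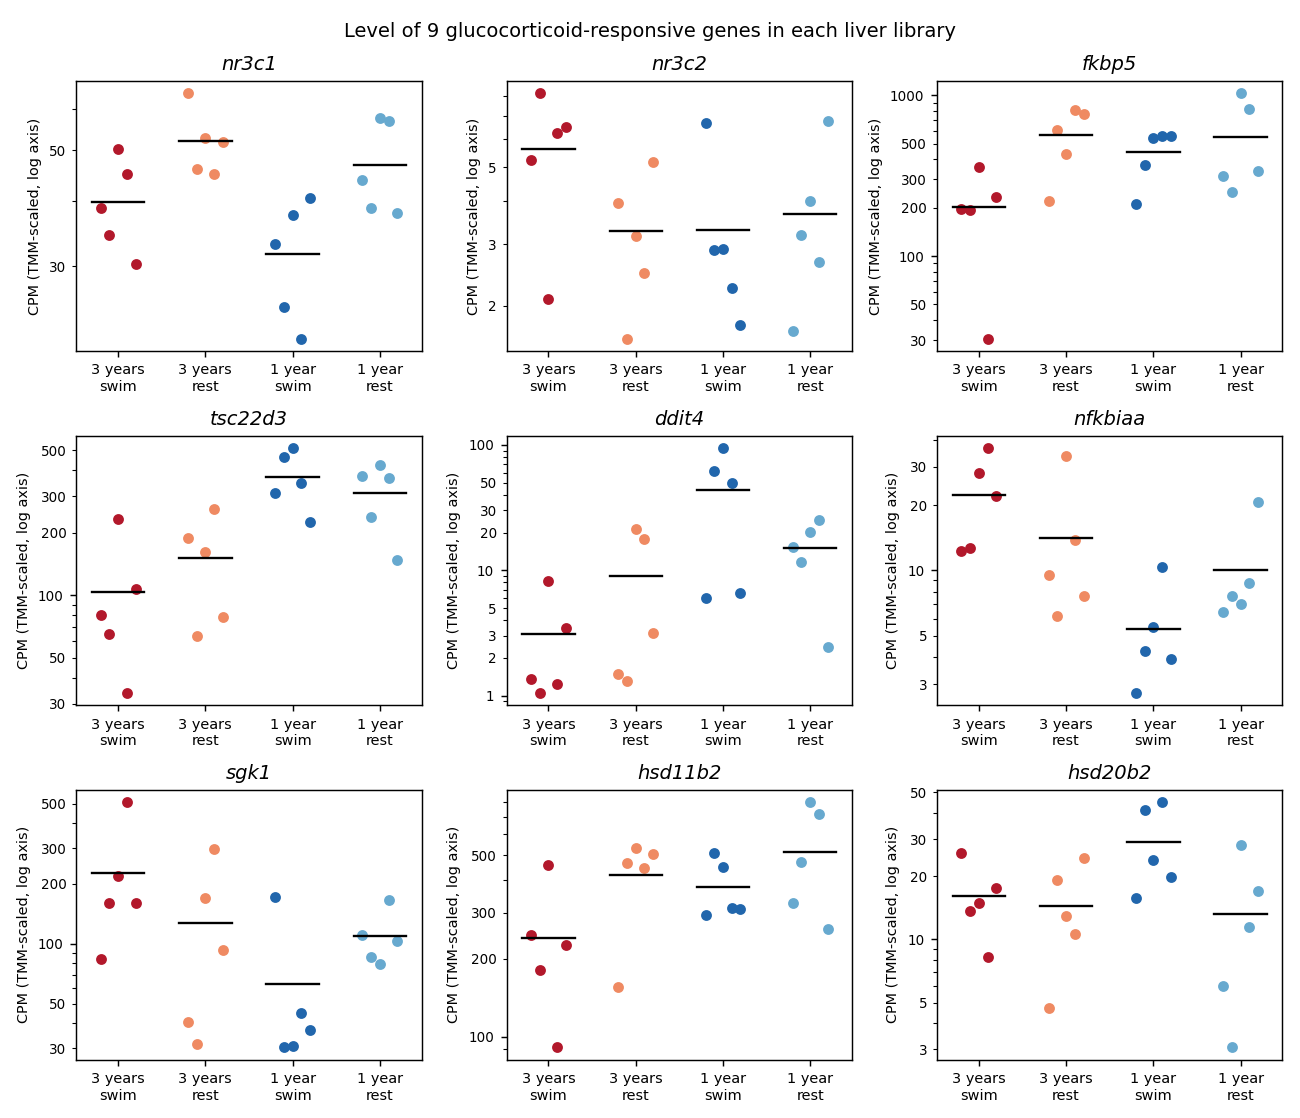
Level of each of the 9 genes in each of the 20 liver libraries, in CPM on a log axis, by group from left to right: exercised 3 years, resting 3 years, exercised 1 year, resting 1 year. Points are libraries and bars the group means; tsc22d3 and ddit4 sit lower, and nfkbiaa higher, in the exercised fish of 3 years than in those of 1 year.

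Across the whole set, age was the contrast in which members passed the test, and exercise was not. In exercised fish, 3 of the 9 genes differed between 3 years and 1 year, against 9.17% of the 18079 genes tested: tsc22d3 and ddit4 fell and nfkbiaa rose (edgeR quasi-likelihood test, adjusted p under 0.05 over all genes). In resting fish no member passed by edgeR, with 1 at an unadjusted p under 0.05, and DESeq2 and limma-voom also called none. By edgeR 3.5% of all genes passed there. Whether the age effect differs between exercised and resting fish is the same test as the difference between exercise effects below. No member passed that test by edgeR with all libraries, so an age effect particular to exercised fish was not shown. Averaged over rest and exercise, the same 3 members passed, against 12.4% of all genes. All 9 members passed the filter on low counts. They were chosen with earlier results of these data known, so the shares over all genes are a description. The age difference in exercised fish shares the exercised 3-year libraries with the exercise difference at 3 years, and the exercised 1-year libraries with that at 1 year. The values of these contrasts below are thus not independent of each other.

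For exercise, no member passed by edgeR at either age or on average. At 1 year 2.85% of all genes passed and 2 members had an unadjusted p under 0.05; at 3 years no gene passed (0.0%) and 1 member did. On average over both ages 1.95% of all genes passed and 3 members had an unadjusted p under 0.05. The difference between the exercise effects at 3 years and at 1 year passed in 0.979% of all genes and in no member, with 2 members at an unadjusted p under 0.05. DESeq2 called no member at either age or in that difference, with 3 (1 year), 2 (3 years) and 2 (difference) at an unadjusted p under 0.05, and 1 member on average, nr3c1. limma-voom called none, with unadjusted counts equal to those of edgeR.

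**Figure D2:**
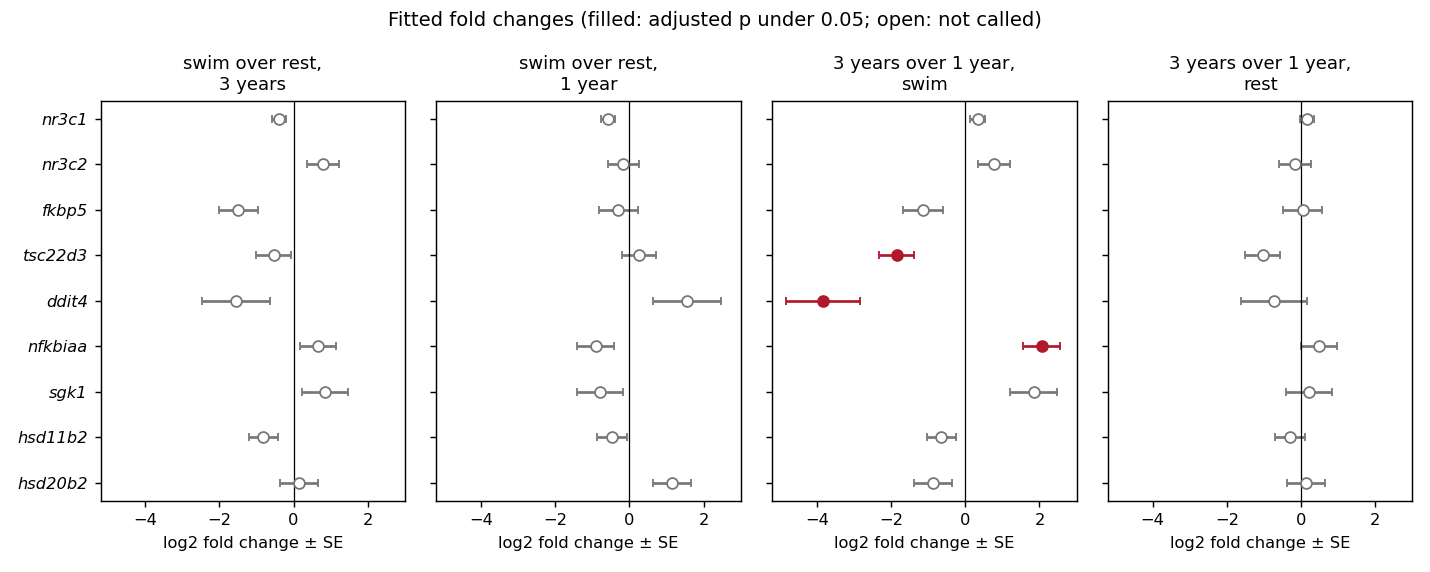
Log2 fold change (x axis, with its standard error) of each of the 9 genes with exercise (swim over rest) at 3 years and at 1 year, and with age (3 years over 1 year) in exercised and in resting fish. Filled red symbols passed the edgeR test (adjusted p under 0.05); these are tsc22d3 and ddit4 below 0 and nfkbiaa above 0, all with age in exercised fish.

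The receptors come first. nr3c1 (ENSDARG00000025032) encodes the glucocorticoid receptor, of which zebrafish have a single gene. Its levels were 38.8, 34.4, 50.2, 45.1 and 30.3 CPM in exercised fish of 3 years (replicates 1 to 5), against 64.3, 46.0, 52.9, 45.0 and 51.9 CPM in resting fish of 3 years. At 1 year they were 33.1, 25.1, 37.6, 21.8 and 40.6 CPM in exercised fish, against 43.8, 38.7, 57.6, 56.8 and 37.9 CPM in resting fish. At 1 year 4 of 5 exercised libraries lay below every resting one, and at 3 years 3 of 5 did, and the groups overlapped at both ages. In plain CPM no exercised library of 3 years lay below every resting one. At 1 year 3 of 5 did, as replicates 3 and 5 (36.4 and 38.5) exceeded the lowest resting library (35.3). Plain means were 45.4 ± 3.34 in exercised and 48.0 ± 11.9 in resting fish of 3 years. At 1 year they were 31.5 ± 5.66 and 43.9 ± 6.66. Averaged over both ages the log2 fold change with exercise was -0.48 ± 0.14 (SE; adjusted p = 0.0771 by edgeR, unadjusted p = 0.00231), just outside the threshold. DESeq2 gave the same size with an adjusted p of 0.0153, and edgeR with the prss1 level as a covariate gave -0.51 with an adjusted p of 0.0472. Taken singly, the value was -0.57 ± 0.19 at 1 year (adjusted p = 0.134) and -0.39 ± 0.19 at 3 years (adjusted p = 0.319). The average was -0.34 without the 7 libraries with intestinal reads (adjusted p = 0.43). The age difference was 0.33 ± 0.19 in exercised fish and 0.15 ± 0.19 in resting fish, neither of which passed. In plain CPM exercised libraries ran from 41.5 to 49.2 at 3 years and from 26.0 to 38.5 at 1 year, without overlap. How many other genes separate so in plain CPM was not examined.

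nr3c2 (ENSDARG00000102082) encodes the mineralocorticoid receptor, which also binds cortisol. It was at 5.23, 8.14, 2.09, 6.27 and 6.52 CPM in exercised fish of 3 years, against 3.93, 1.61, 3.16, 2.49 and 5.17 CPM in resting fish of 3 years. At 1 year the levels were 6.69, 2.89, 2.91, 2.25 and 1.76 CPM in exercised fish, against 1.69, 3.19, 3.99, 2.67 and 6.79 CPM in resting fish. In 4 of 5 exercised fish of 3 years the level exceeded every resting fish of that age, while replicate 3 was low, and the log2 fold change of 0.79 ± 0.43 did not pass (adjusted p = 0.36). Of those 4 libraries, replicates 1, 2 and 5 hold intestinal reads; without such libraries the value was 0.33 (adjusted p = 0.901). Over the whole study the median was 5.23 CPM in the 7 libraries with intestinal reads and 2.89 CPM in the other 13. Per length, the ratio of nr3c1 to nr3c2 was above 1 in every library. Its median was 4.75 in exercised fish of 3 years (2.79 to 15.9) and 11 in resting fish of 3 years (6.62 to 18.9). At 1 year it was 6.39 in exercised fish (3.27 to 15.2) and 9.52 in resting fish (3.69 to 17.2). These ranges overlap between all groups, and the ratio was not tested.

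fkbp5 (ENSDARG00000028396) encodes FKBP51, an immunophilin that, in mammals, lowers the affinity of the receptor complex for hormone and is itself induced by it. Its levels were 196, 193, 360.3, 30.7 and 233 CPM in exercised fish of 3 years, against 221, 606, 433, 812 and 767 CPM in resting fish of 3 years. At 1 year they were 209.7, 367, 544, 556 and 558 CPM in exercised fish, against 316, 252, 1029.6, 818 and 338 CPM in resting fish. The exercised fish of 3 years were the low group, at 202 ± 118 CPM (SD, n = 5), and replicate 4 alone was at 30.7. With exercise at 3 years the log2 fold change was -1.49 ± 0.53, with 3 of 5 exercised libraries below every resting one, and it did not pass (adjusted p = 0.206). In plain CPM only exercised replicate 4 (29.1) lay below the lowest resting library of that age (194). Without the libraries with intestinal reads the value was -1.62 (edgeR adjusted p = 0.654). The age difference in exercised fish, -1.14 ± 0.53, did not pass either (adjusted p = 0.183). Resting fish averaged 568 ± 244 CPM at 3 years and 551 ± 350 CPM at 1 year, a log2 fold change of 0.04 ± 0.52.

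tsc22d3 (ENSDARG00000075666) encodes GILZ, the glucocorticoid-induced leucine zipper, which in mammals binds and restrains NF-kB and AP-1. It was at 79.9, 65.0, 232, 33.8 and 107 CPM in exercised fish of 3 years, against 311, 462, 513, 347 and 225 CPM in exercised fish of 1 year. Among resting fish it was at 189, 63.8, 161, 259.6 and 78.6 CPM at 3 years, against 376, 239, 422, 365 and 148 CPM at 1 year. In exercised fish 4 of 5 libraries of 3 years lay below all of those of 1 year, and replicate 3 (232 CPM) overlapped with the lowest of 1 year. tsc22d3 fell with age in exercised fish by 1.85 ± 0.47 on the log2 scale, which is 3.59-fold (edgeR adjusted p = 0.0209). Averaged over rest and exercise it fell by 1.44 ± 0.33 (adjusted p = 0.00841). In resting fish the value was -1.04 ± 0.46 (adjusted p = 0.249), and the exercise effects at 3 years and 1 year, -0.54 ± 0.46 and 0.26 ± 0.46, did not differ past the threshold (difference -0.80 ± 0.65, adjusted p = 0.564). The call in exercised fish was lost without the 7 libraries with intestinal reads, which leaves 2 exercised libraries of 3 years and 3 of 1 year (-1.39, adjusted p = 0.347). It was also lost without exercised 3-year replicate 1 (-1.77, adjusted p = 0.0553) or 2 (-1.72, adjusted p = 0.0544), or exercised 1-year replicate 3 (-1.7, adjusted p = 0.057). With all libraries and the fabp2 level as a covariate the call was kept (-1.81, edgeR adjusted p = 0.0162).

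ddit4 (ENSDARG00000037618) encodes REDD1, an inhibitor of the growth kinase mTORC1 that is induced by glucocorticoids, low oxygen and energy stress. It was at 1.36, 1.05, 8.25, 1.25 and 3.48 CPM in exercised fish of 3 years, against 5.97, 61.7, 94.9, 49.8 and 6.64 CPM in exercised fish of 1 year. Resting fish had 1.49, 1.32, 21.3, 17.9 and 3.17 CPM at 3 years, against 15.4, 11.7, 20.1, 25.4 and 2.43 CPM at 1 year. The exercised fish of 1 year fell into a high part of 3 libraries and a low part of 2, and only 3-year replicate 3 reached the low part. In the high part, replicate 2 carries testis markers and replicates 3 and 4 intestinal ones. Replicates 1 and 5, the low part, were not high in either. The part of such cells in the level of ddit4 was not tested. ddit4 fell with age in exercised fish by 3.84 ± 1.0 on the log2 scale, 14.3-fold, with 4 of 5 libraries of 3 years below all of those of 1 year (edgeR adjusted p = 0.0233). Averaged over rest and exercise it fell by 2.28 ± 0.66 (adjusted p = 0.0305), and in resting fish the value was -0.73 ± 0.90 (adjusted p = 0.754). The exercise effect was -1.56 ± 0.92 at 3 years and 1.55 ± 0.91 at 1 year, opposite in sign, but neither passed and the difference between them, -3.1 ± 1.3, did not either (adjusted p = 0.287). The call in exercised fish was lost without the libraries with intestinal reads (-2.44, adjusted p = 0.357) and without exercised 3-year replicate 1 (-3.65, adjusted p = 0.0612), 2 (-3.61, adjusted p = 0.0572) or 4 (-3.64, adjusted p = 0.0543), or exercised 1-year replicate 3 (-3.34, adjusted p = 0.0618). With all libraries and the fabp2 level as a covariate it was kept (-3.84, edgeR adjusted p = 0.0194).

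nfkbiaa (ENSDARG00000005481) encodes a form of IκBα, the inhibitor that holds NF-kB in the cytoplasm; its transcription is induced by NF-kB and, in mammalian cells, by glucocorticoids. It was at 12.3, 12.7, 28.1, 36.7 and 21.9 CPM in exercised fish of 3 years, against 2.73, 4.26, 5.5, 10.4 and 3.91 CPM in exercised fish of 1 year. Resting fish had 9.54, 6.17, 33.6, 13.8 and 7.62 CPM at 3 years, against 6.45, 7.64, 7.04, 8.78 and 20.6 CPM at 1 year. All 5 exercised fish of 3 years lay above all 5 of 1 year, a separation in this direction that 3.95% of all tested genes showed; the resting groups overlapped. nfkbiaa rose with age in exercised fish by 2.06 ± 0.50 on the log2 scale, 4.16-fold (edgeR adjusted p = 0.0171). It rose by 1.27 ± 0.35 averaged over rest and exercise (adjusted p = 0.023), a call lost without resting 3-year replicate 3 (0.97, adjusted p = 0.0513). The value in resting fish alone was 0.48 ± 0.48 and did not pass (edgeR adjusted p = 0.688). In exercised fish it passed under all 29 alternatives, from 1.8 to 3.08, the highest being without the libraries with intestinal reads (adjusted p = 0.00239). Of exercised fish of 3 years that fit keeps only replicates 3 and 4 (28.1 and 36.7 CPM), the highest of the group. It drops the highest library of each other group: resting 3-year replicate 3 (33.6 CPM), exercised 1-year replicate 4 (10.4 CPM) and resting 1-year replicate 5 (20.6 CPM). Some alternatives left out 1 resting library, which is in neither group of this contrast, and there nfkbiaa stayed at 2.04 to 2.06. Its exercise effect was 0.66 ± 0.49 at 3 years and -0.91 ± 0.49 at 1 year, a difference of 1.57 ± 0.69 that did not pass (adjusted p = 0.306) except without the libraries with intestinal reads (2.81, adjusted p = 0.0375).

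The myeloid marker list moved with nfkbiaa: 12 of its 20 tested genes rose with age in exercised fish, with a median log2 fold change of 1.63 against 0.08 over all genes, of which 3.91% rose, and none fell. Averaged over rest and exercise 10 of 20 rose, against 5.4% of all genes. The 16 listed symbols matched 22 genes, some of which share a symbol, and the most abundant was an MFAP4 gene at 31.8 to 529 plain CPM. The summed marker level, here scaled by TMM like the members, was 201 to 705 CPM in exercised fish of 3 years and 79.2 to 192 CPM in exercised fish of 1 year, groups that do not overlap. The part of these cells in the level of nfkbiaa was not tested. Without the libraries with intestinal reads 10 of 20 rose in exercised fish, and with 1 library left out in turn 7 to 14 did. In resting fish none of the 20 markers passed by edgeR.

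sgk1 (ENSDARG00000025522) encodes a kinase that regulates ion channels and transporters and was first known as an early response to serum and glucocorticoid. It was at 84.3, 159, 218, 509.9 and 160.2 CPM in exercised fish of 3 years, against 172, 30.3, 30.8, 44.9 and 37.0 CPM in exercised fish of 1 year. Resting fish had 40.7, 31.6, 169, 298 and 92.7 CPM at 3 years, against 111, 85.7, 79.0, 165 and 103 CPM at 1 year. Apart from replicate 1 at 172 CPM, the exercised fish of 1 year were below every exercised fish of 3 years. The log2 fold change with age in exercised fish was 1.84 ± 0.64 and did not pass (adjusted p = 0.0766). It passed by DESeq2 (1.82, adjusted p = 0.0191), with the fabp2 level as a covariate (1.92, adjusted p = 0.0447) and without exercised 1-year replicate 1 (2.66, adjusted p = 0.0198). Without exercised 3-year replicate 4, the highest library, it was 1.3 (adjusted p = 0.204). Averaged over rest and exercise the value was 1.03 ± 0.44 (adjusted p = 0.137). The exercise effects at 3 years and 1 year were 0.84 ± 0.62 and -0.79 ± 0.62.

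hsd11b2 (ENSDARG00000001975) encodes the dehydrogenase that converts cortisol to inactive cortisone. It was at 246, 181, 459, 91.1 and 225 CPM in exercised fish of 3 years, against 155, 468, 532, 445 and 503 CPM in resting fish of 3 years. At 1 year it was at 294, 511, 451, 313 and 309.6 CPM in exercised fish, against 327, 469, 798, 722 and 261 CPM in resting fish. The exercised group of 3 years had the lowest mean, 241 ± 136 CPM (SD, n = 5), but resting 3-year replicate 1 was lower than 4 of its 5 libraries. The exercise effect was -0.81 ± 0.40 at 3 years (adjusted p = 0.324) and -0.46 ± 0.40 at 1 year (adjusted p = 0.698), and on average -0.63 ± 0.28 (adjusted p = 0.275). With age it was -0.64 ± 0.40 in exercised fish (adjusted p = 0.333) and -0.29 ± 0.40 in resting fish.

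hsd20b2 (ENSDARG00000031336) encodes a reductase that, in zebrafish, turns cortisone into 20β-hydroxycortisone, a step towards excretion. It was at 25.8, 13.6, 14.9, 8.21 and 17.5 CPM in exercised fish of 3 years, against 4.72, 19.2, 12.9, 10.6 and 24.5 CPM in resting fish of 3 years. At 1 year it was at 15.7, 41.3, 23.9, 44.9 and 19.7 CPM in exercised fish, against 6.03, 3.06, 28.1, 11.5 and 17.0 CPM in resting fish. The highest libraries of the study were exercised 1-year replicates 2 and 4, of which replicate 2 carries testis markers and replicate 4 intestinal ones. With exercise at 1 year the log2 fold change was 1.15 ± 0.52 (adjusted p = 0.304, unadjusted p = 0.0396), and at 3 years 0.15 ± 0.51. The age difference in exercised fish was -0.86 ± 0.51 (adjusted p = 0.309).

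**Figure D3:**
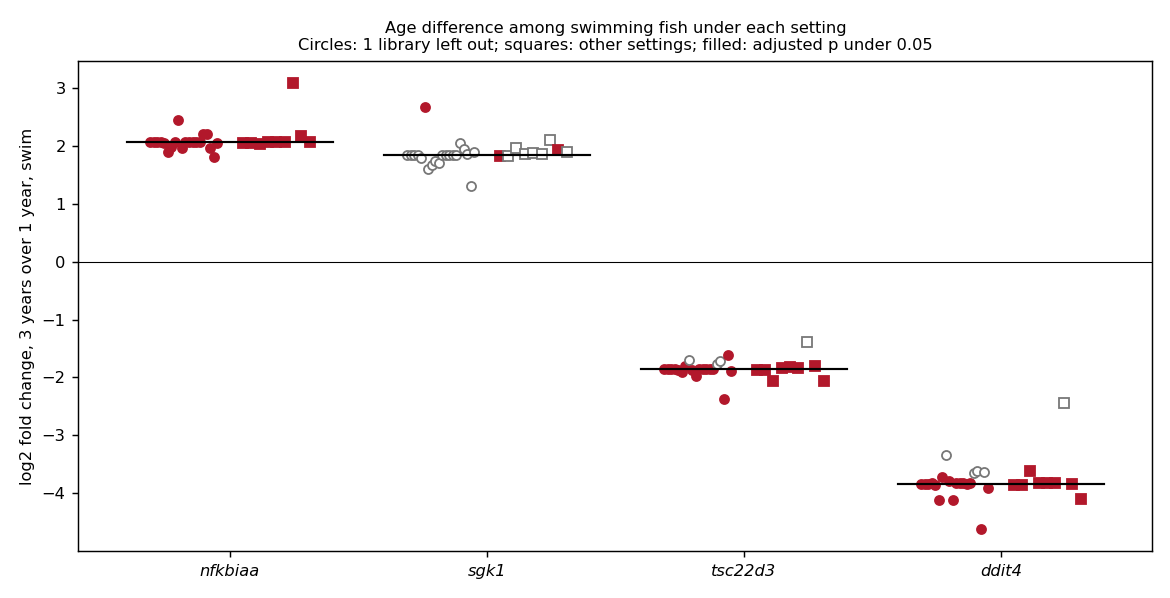
Log2 fold change with age in exercised fish (3 years over 1 year) of nfkbiaa, sgk1, tsc22d3 and ddit4 under 29 alternatives to the processing (circles, 1 library left out; squares, other settings; lines, the values reported), filled where the adjusted p is under 0.05. nfkbiaa passed under all 29 alternatives (1.8 to 3.08), tsc22d3 under 25 (-2.38 to -1.39), ddit4 under 24 (-4.61 to -2.44) and sgk1 under 3 (1.3 to 2.66). Alternatives that left out a resting library changed neither group of this contrast.

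Genes that stand around these members in the pathway were followed as 7 lists. The lists were chosen with earlier results of these data known, so the shares over all genes beside their counts are a description. Of 35 tested genes known from other work as glucocorticoid-induced, 0 rose and 6 fell with age in exercised fish, with a median log2 fold change of -0.52 against 0.08 over all genes, of which 3.91% rose and 5.25% fell. GLUL (ENSDARG00000100003), glutamine synthetase, averaged 30.4 ± 16.6 CPM in exercised fish of 3 years and 189.6 ± 79.6 CPM in those of 1 year, a log2 fold change of -2.64 ± 0.40 (adjusted p = 0.00111). PER1 (ENSDARG00000056885), a clock repressor, averaged 1.38 ± 1.39 CPM in exercised fish of 3 years and 13.9 ± 4.76 CPM in those of 1 year (-3.32 ± 0.61, adjusted p = 0.0038). g6pc1a.1, glucose-6-phosphatase, and SESN1, a sestrin that restrains mTORC1, fell by 1.2 ± 0.30 and 1.32 ± 0.34. In resting fish none of the 35 passed by edgeR, with a median of -0.22. DESeq2 called 3 of the 35 there, all lower, and 1521 of all genes in either direction. Without the libraries with intestinal reads edgeR called 3 of the 35 in resting fish, all lower, and 434 of all genes. In exercised fish 2 of the 6 falls remained past the threshold without those libraries, GLUL (-3.22, adjusted p = 0.0141) and PER1 (-5.05, adjusted p = 0.00729).

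On the same list 3 genes rose and none fell with exercise at 1 year, where 1.38% of all genes rose and 1.47% fell, with a median of 0.06. ZBTB16 (ENSDARG00000007184), a zinc finger repressor, averaged 159.8 ± 42.8 CPM in exercised and 7.35 ± 5.52 CPM in resting fish of 1 year (4.44 ± 0.74, adjusted p = 0.00424). FOXO1 (ENSDARG00000099555), a regulator of gluconeogenesis, averaged 158 ± 52.7 CPM in exercised and 24.8 ± 28.9 CPM in resting fish (2.67 ± 0.55, adjusted p = 0.0135). GLUL averaged 189.6 ± 79.6 CPM in exercised fish, the same libraries as in its age difference, and 35.0 ± 14.5 CPM in resting fish (2.44 ± 0.40, adjusted p = 0.00422). All 3 also passed without the libraries with intestinal reads (4.71 for ZBTB16, 3.73 for FOXO1 and 2.43 for GLUL). Whether their effects differ from those of the 9 members, none of which passed in that contrast, was not tested. On average over both ages 4 of the 35 rose and none fell, where 1.0% of all genes rose and 0.951% fell. The 4 were ZBTB16, FOXO1, GLUL and zbtb16b. With the libraries of intestinal reads left out, GLUL (1.22, adjusted p = 0.165) and zbtb16b (2.16, adjusted p = 0.156) did not pass there. At 3 years none passed by edgeR, as for all genes.

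Of 27 tested genes of steroid synthesis and metabolism, 1 rose and 7 fell with age in exercised fish, with a median of -0.58. Of all genes 3.91% rose and 5.25% fell in that contrast, with a median of 0.08. hsd11b1la, a relative of the enzyme that regenerates cortisol in mammals, averaged 42.5 ± 3.14 CPM in exercised fish of 3 years and 65.0 ± 5.77 CPM in those of 1 year (-0.61 ± 0.12, adjusted p = 0.00627). fdx1, ferredoxin, the electron donor of mitochondrial steroid hydroxylases, averaged 43.4 ± 12.3 CPM in exercised fish of 3 years and 134 ± 45.7 CPM in those of 1 year (-1.62 ± 0.27, adjusted p = 0.00202). hsd17b12b and HSD17B7, which act in fatty acid elongation and sterol synthesis as well, fell by 1.6 ± 0.31 and 3.33 ± 0.70. In resting fish 1 rose, HSD17B3 (1.81 ± 0.42), and 3 fell with age: SRD5A1, HSD17B7 and fdx1. Of all genes 1.23% rose and 2.26% fell with age at rest. HSD17B3, a testosterone-forming enzyme, was the single member of the steroid list whose exercise effect differed between the ages (-3.62 ± 0.60, adjusted p = 0.00864). It averaged 24.6 ± 8.73 CPM in exercised and 129 ± 63.3 CPM in resting fish of 3 years, and 86.5 ± 49.6 CPM in exercised and 36.8 ± 9.79 CPM in resting fish of 1 year. Without the libraries with intestinal reads that difference was -3.86 (adjusted p = 0.13), and of the 7 falls with age in exercised fish only that of fdx1 passed (-1.93, adjusted p = 0.0282). hsd11b1la (-0.77, adjusted p = 0.0885), hsd17b12b (-1.71, adjusted p = 0.0821) and HSD17B7 (-3.27, adjusted p = 0.123) did not pass there, nor did HSD17B3 (1.96, adjusted p = 0.0622) and fdx1 (-1.07, adjusted p = 0.0618) with age at rest. Among exercised fish cyp3c1 rose (1.16) and HSD17B12 (-3.0) and sult2st2 (-1.33) fell with age there, genes named after their values were seen. With all libraries none of these 3 passed by edgeR: cyp3c1 was at 0.51 (adjusted p = 0.283), HSD17B12 at -0.12 (0.935) and sult2st2 at -0.68 (0.108).

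Of 18 tested chaperones of the receptor complex, 1 fell with age in exercised fish, the cyclophilin PPID (-0.79 ± 0.19), and 2 fell in resting fish, the phosphatase PPP5C (-0.77 ± 0.15) and PTGES3, the p23 co-chaperone (-1.29 ± 0.32). Of all genes 5.25% fell with age in exercised fish and 2.26% in resting fish. Averaged over rest and exercise, 4 fell and none rose, with a median of -0.07 against 0.04 over all genes, of which 5.4% rose and 6.95% fell. Of 20 nuclear receptor coregulators, 2 rose and 2 fell with exercise at 1 year, where 1.38% of all genes rose and 1.47% fell. PPARGC1A, a coactivator of mitochondrial and gluconeogenic genes, averaged 29.0 ± 16.5 CPM in exercised and 2.68 ± 4.2 CPM in resting fish of 1 year (3.42 ± 0.80, adjusted p = 0.0258). NCOR1, a corepressor, rose there by 0.89 ± 0.21 (adjusted p = 0.0278), and NCOA2, a coactivator, fell by 0.65 ± 0.17 (adjusted p = 0.0401). With age in exercised fish the acetyltransferase gene EP300 rose by 0.59 ± 0.17 (adjusted p = 0.0361), and nrip1b, a corepressor, fell by 0.98 ± 0.21 (adjusted p = 0.00854). Among these, when the libraries with intestinal reads were left out, PPARGC1A (5.36, adjusted p = 0.0215), PPP5C (-0.79) and PTGES3 (-1.2) passed. PPID (-0.97), NCOR1 (1.05), NCOA2 (-0.64), EP300 (0.49) and nrip1b (-0.69) did not pass with those fewer libraries, at adjusted p of 0.122, 0.115, 0.13, 0.392 and 0.208 in that order.

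Around nfkbiaa, 2 of 21 tested NF-kB pathway genes rose with age in exercised fish and none fell: nfkb2, the p100 precursor (1.14 ± 0.31), and traf2b, an adaptor of tumour necrosis factor receptors (0.87 ± 0.26). The median of the list was 0.18, and 3.91% of all genes rose and 5.25% fell in this contrast, in which 12 of 20 myeloid markers rose as well; their part in these values was not tested. Around ddit4, 3 of 21 genes of the mTORC1 pathway fell and 1 rose with age in exercised fish. The inhibitor DEPTOR averaged 93.0 ± 43.1 CPM in exercised fish of 3 years and 240.4 ± 52.9 CPM in those of 1 year (-1.37 ± 0.35), MTOR itself changed by -1.8 ± 0.45 and SESN1 by -1.32 ± 0.34, while sesn2 rose by 1.44 ± 0.43. Around sgk1, 2 of 22 genes rose in the same contrast, oxsr1b and the ubiquitin ligase NEDD4L, and NDRG2, of a family of SGK substrates, fell by 1.31 ± 0.34. The exercise effect on oxsr1b, a kinase of salt transport, differed between the ages (1.44 ± 0.31, adjusted p = 0.0309), with 14.0 ± 3.48 CPM in exercised and 9.03 ± 2.62 CPM in resting fish of 3 years, and 8.44 ± 1.69 CPM in exercised and 14.8 ± 2.77 CPM in resting fish of 1 year; it was 1.17 (adjusted p = 0.332) without the libraries with intestinal reads. In resting fish NEDD4L rose with age by 1.05 ± 0.26, and no gene of the NF-kB or mTORC1 lists passed by edgeR. DESeq2 called 1521 of all genes there, and 1 and 3 of the NF-kB and mTORC1 lists. When the libraries with intestinal reads were left out, none of these genes passed with age in exercised fish: nfkb2 was at 0.97 (adjusted p = 0.125), traf2b at 0.92 (0.202), MTOR at -2.0 (0.164), SESN1 at -0.96 (0.153), DEPTOR at -1.11 (0.0862), sesn2 at 1.86 (0.114), oxsr1b at 0.46 (0.48), NEDD4L at 0.64 (0.195) and NDRG2 at -1.11 (0.133). REL, an NF-kB subunit named after its values were seen, passed there (1.42, adjusted p = 0.0441) and not with all libraries (1.26, adjusted p = 0.0794). With age at rest and those libraries left out, NEDD4L passed (1.31, edgeR adjusted p = 0.0121). So did 1 gene of the NF-kB list, higher, and 1 of the mTORC1 list, lower, where 434 of all genes were called.

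Over the 20 libraries the members' log2 CPM values were compared in all 36 pairs. Of these, 4 passed by Spearman correlation after Benjamini-Hochberg adjustment over the 36 (permutation test, 100000 resamples), all positive. How many pairs of other genes would pass in these libraries was not examined, so the count does not set the members apart from other genes. tsc22d3 and ddit4 had Pearson r = 0.856 (adjusted p = 0.00018) and Spearman rho = 0.878 (adjusted p = 0.00036), where the raw p of 1e-05 is the smallest the permutations can give. Pearson r was 0.841 without the 2 libraries farthest from the median of tsc22d3, and 0.732 for deviations from the group means. fkbp5 and hsd11b2 had r = 0.85 (adjusted p = 0.00018) and rho = 0.764 (adjusted p = 0.00396), with r = 0.712 without the 2 farthest libraries and 0.797 within groups. Both pairs thus varied together over the 20 libraries. The permutations took no account of the groups, so the p-values also hold differences between groups. The coefficients within groups were positive for both pairs but were not tested.

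ddit4 and hsd11b2 had r = 0.644 and rho = 0.659 (adjusted p = 0.0233 for each), with r = 0.654 without the 2 farthest libraries and 0.625 within groups. nfkbiaa and sgk1 had r = 0.625 (adjusted p = 0.032) and rho = 0.629 (adjusted p = 0.0353), with r = 0.498 and 0.357 on the same checks. The most negative pair, nr3c2 and fkbp5, had r = -0.509 (adjusted p = 0.0747) and rho = -0.558 (adjusted p = 0.0725). Exercised 3-year replicate 4 shows both sides: it held the lowest level of fkbp5, tsc22d3 and hsd11b2 and the highest of sgk1 and nfkbiaa among all 20 libraries, with fabp2 below 5.73 plain CPM. It also held the highest sums of myeloid (667.62 plain CPM) and skeletal muscle markers (250.96 plain CPM) among the 20 libraries. The part of such cells in these levels was not tested.

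**Figure D4:**
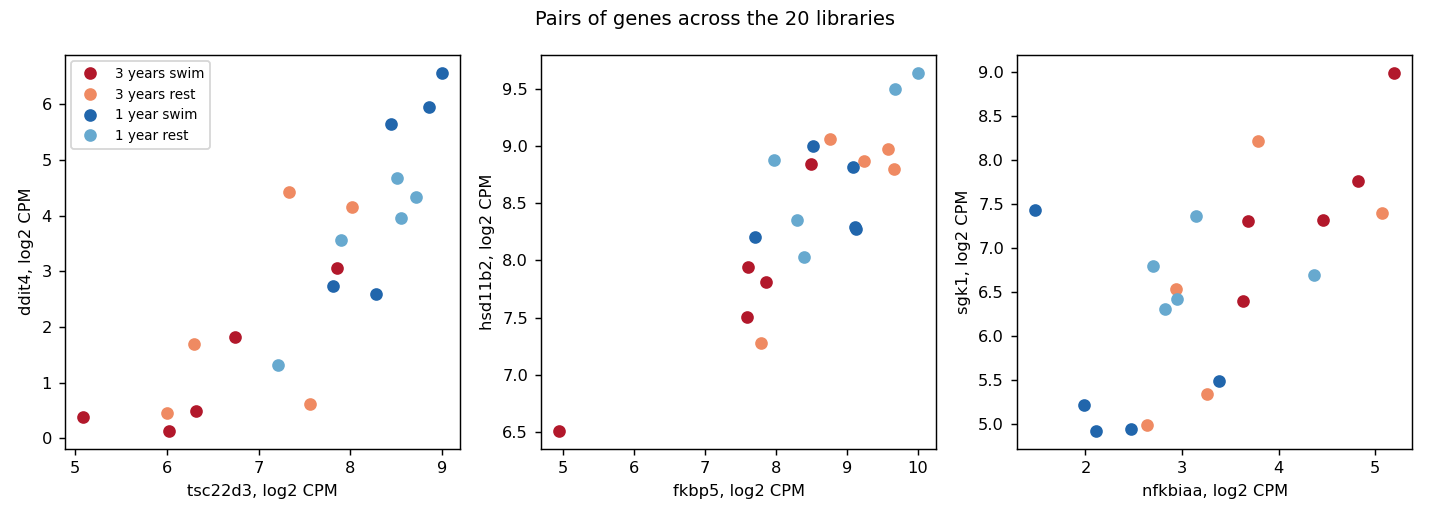
Log2 CPM of tsc22d3 and ddit4, of fkbp5 and hsd11b2, and of nfkbiaa and sgk1 in the 20 liver libraries, each point a library coloured by its group. Libraries high in the first gene of each pair tend to be high in the other (Spearman rho 0.878, 0.764 and 0.629 in that order), with exercised 3-year replicate 4 alone at the lower left for fkbp5 and hsd11b2.

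As a description, the genes whose levels were most like each member's over the 20 libraries were named by Spearman rho, without a test. For nr3c1 these were hdlbpb (0.946), si:dkey-220k22.1 (0.928) and BCKDK (0.923), and for nr3c2 casp8ap2 (0.779), HECTD4 (0.768) and ABL1 (0.749). fkbp5 was most like pik3r3a (0.883), B3GNT2 (0.877) and the clock repressor gene nr1d2a (0.862). Among all genes considered, the one most like tsc22d3 was the member ddit4 (0.878), before g6pc1a.1 (0.875) and zfand5b (0.862). For ddit4 the order was mcl1b (0.905), tsc22d3 (0.878) and HERPUD2 (0.829). nfkbiaa was most like TCIRG1 (0.898), zgc:64051 (0.893) and olmf4l1 (0.883).

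sgk1 was most like TAT (0.719), the tyrosine aminotransferase gene, lygl1 (0.71) and SLC25A33 (0.702). For hsd11b2 these were ERRFI1 (0.854), CCDC85B (0.848) and a gene known only by a clone name (0.815), and for hsd20b2 sec14l1 (0.803), hif1al (0.802) and WBP1L (0.777). g6pc1a.1, TAT and ERRFI1 are also on the list of other glucocorticoid-induced genes. These coefficients share the libraries' tissue makeup and depth, and genes were ranked among 8189 with a symbol and a mean of at least 5 CPM.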

How the data were processed

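Liver RNA was sequenced in 20 zebrafish libraries; per the labels' protocols, libraries were made with the TruSeq kit v2, which does not mark strand, so overlapping and antisense genes cannot be separated. The deposited counts are whole reads per gene made by the authors, with bcl2fastq 1.8.4, STAR 2.4.1d and featureCounts 1.4.6-p4 on build GRCz10 per the submitters' processing notes; the sources used here do not say how shared reads were treated. The deposited RPKM were used only for gene lengths: in 1399 well-counted genes, lengths implied by RPKM, counts and a library's own total varied (median coefficient of variation 0.1402), but by at most 0.00013 with the 20 totals repeated down the rows, so lengths were taken that way. No column was without a sample.

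Of 32105 genes, 26269 (81.82%) had a symbol in the gene name table; all 9 members matched by symbol. edgeR 4.0.16 (R 4.3.3) was run with filterByExpr (18079 genes), TMM, 1 model of 4 group means over 20 libraries, quasi-likelihood F-tests of 7 contrasts and Benjamini-Hochberg adjustment, called under 0.05. Scripts were tested on simulated data. CPM use TMM scaling unless called plain; log2 CPM have a prior count of 2. Up to 4 called genes per list and contrast, those with the smallest p, are named, and the 3 genes most like each member; some genes this takes are not reported here. Alternatives were DESeq2 1.42.0, RLE scaling, limma-voom 3.58.1, other filters (none, or at least 1 CPM in at least 5 libraries), the contrast's 2 groups alone, fabp2 or prss1 as covariates, and leaving out libraries. Members and lists were chosen with earlier results of these data known. No coordinates or sequences are given. Replicate numbers follow the order of the samples.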

Additional observations from a re-analysis of the deposited data

Results flagged for a closer look

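In 36 sets of 5 libraries (9 genes in 4 groups), 4 held a library whose gap to its nearest neighbour on the log2 CPM scale, over the range of the group, exceeded the Dixon limit of 0.71; chance alone flags about 1 in 20 sets. fkbp5 was at 30.7 CPM in exercised 3-year replicate 4, far below the other libraries of its group (0.75 of the range). hsd11b2 was at 155 CPM in resting 3-year replicate 1, far below the others (0.85). nfkbiaa was at 20.6 CPM in resting 1-year replicate 5, far above the others (0.74). That library held the most fabp2 of all 20 (3480.21 plain CPM) and the highest myeloid marker sum of its group (419.48 plain CPM). Their part in this value was not tested. sgk1 was at 172 CPM in exercised 1-year replicate 1, far above the others (0.77).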

How the results depend on the processing

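Of 1800 member values under alternatives, 1726 kept their direction and side of the threshold, 18 lost and 7 gained a call, and 49 changed sign, all 49 in members that had not passed. Some of these alternatives left out a library that is in neither group of the contrast. Levels without TMM scaling moved by less than 1 SD in all 36 gene and group means, and other scalings moved the median of all genes by at most 0.021 (log2). Within that limit the order of libraries could change: in plain CPM no exercised 3-year library of nr3c1 lay below every resting one. For fkbp5 only exercised 3-year replicate 4 did. The number of members called with exercise on average was 1 by DESeq2 and 1 with prss1 as a covariate. Without the libraries with intestinal reads, which leaves fewer samples, 1 member was called with age in exercised fish, 1 with age on average and 1 in the difference between exercise effects, in each case nfkbiaa. Leaving out 1 library in turn gave 1 to 4 members called with age in exercised fish, 2 to 4 with age on average and 0 in the other contrasts. On average over rest and exercise ddit4 was lost without resting 1-year replicate 4 (-2.15, adjusted p = 0.0545), exercised 1-year replicate 3 (-2.04, 0.0637), resting 3-year replicate 5 (-2.17, 0.055) or exercised 3-year replicates 1 (-2.19, 0.0556), 2 (-2.17, 0.0552) or 4 (-2.18, 0.0545), and tsc22d3 and ddit4 without the libraries with intestinal reads (-1.33 and -2.05). There sgk1 was gained without exercised 1-year replicate 1 (1.44, 0.0293). The cause of these changes was not tested.

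Signs changed by limma-voom for sgk1 with age at rest (-0.21) and with exercise on average (-0.02), with the stricter filter for ddit4 with exercise on average (0.01), and with fabp2 as a covariate for hsd20b2 with exercise at 3 years (-0.08). Without the libraries with intestinal reads they changed for nr3c2 (0.43) and tsc22d3 (-0.04) with exercise at 1 year, hsd20b2 with exercise at 3 years (-0.35), nr3c2 (0.16) and fkbp5 (-0.04) with age at rest, nr3c2 (-0.09) and hsd11b2 (0.1) in the difference between exercise effects, and ddit4 (0.08) and nfkbiaa (0.4) with exercise on average. With 1 library left out in turn, the values that crossed 0 ranged from -0.58 to 0.19 for nr3c2 and -0.49 to 0.05 for fkbp5 with exercise at 1 year, and -0.08 to 0.43 for hsd20b2 with exercise at 3 years. With age at rest they ranged from -0.39 to 0.14 for nr3c2, -0.14 to 0.4 for fkbp5, -0.13 to 0.87 for nfkbiaa, -0.38 to 0.46 for sgk1 and -0.15 to 0.61 for hsd20b2. With exercise on average they ranged from -0.41 to 0.0 for tsc22d3, -0.4 to 0.3 for ddit4, -0.32 to 0.18 for nfkbiaa and -0.38 to 0.33 for sgk1.

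The number of all genes called depended on the test: DESeq2 called 1198 with exercise at 1 year against 515 by edgeR, 617 against 0 at 3 years, 1521 against 632 with age at rest and 3011 against 1657 with age in exercised fish. Leaving out 1 library gave 866 to 2515 in the last of these, and leaving out the libraries with intestinal reads 437. The counts in the gene lists were recomputed under DESeq2 and without libraries after seeing the data. No paired analysis was possible because the replicate numbers were given in accession order.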
